A study of Mus musculus with 6 samples.

Results

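The 10 genes described here encode the MHC class I molecule and the machinery that supplies it with peptides. They are the heavy chains H2-K1 and H2-D1, the light chain B2m, the peptide transporter genes Tap1 and Tap2, the loading factor Tapbp, the immunoproteasome subunits Psmb8, Psmb9 and Psmb10, and the proteasome activator subunit Psme2. They were chosen by name for their function, and all 10 of them were present among the 18429 genes of the matrix. The measurements are MARS-seq counts, in which transcripts of sorted single cells are tagged at the 3′ end with unique molecular identifiers (UMIs), in bone marrow-derived macrophages. Wild-type and Rad21-/- macrophages were compared untreated and after 2 or 8 h of 10 ng/ml lipopolysaccharide (LPS), a bacterial cell wall component. Bone marrow came from mice of a mixed strain background with the creERT2/creERT2 allele at the rosa26 locus, which carried either unaltered or floxed Rad21, and both genotypes received 200 nM 4-hydroxytamoxifen during culture, so that Cre activation was common to all 6 groups. Rad21 encodes a subunit of the cohesin ring, and the study asked how its loss changes inducible transcription. Each group is 1 sample, so there is no replicate check, no test was run, and each 95% interval covers counting error only.

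MHC class I molecules sit on the surface of nearly all nucleated cells and show peptides of cytosolic proteins to CD8+ T cells. Proteasomes cut proteins into peptides, the TAP transporter carries the peptides into the endoplasmic reticulum, and tapasin helps to load them onto a heavy chain bound to beta-2-microglobulin. Interferons raise the expression of most of these genes, and in interferon-treated cells 3 catalytic subunits of the constitutive proteasome are exchanged for immunosubunits. Macrophages make type I interferon after LPS and respond to it.

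Most of these genes lie close together in the major histocompatibility complex. In the RefSeq gene table of GRCm38.p6, whose chromosome coordinates are those of the earlier patch release that the authors mapped to, 7 of the 10 are on chromosome 17. There, Psmb9 (chr17:34182030-34187330, minus strand), Tap1 (chr17:34187556-34197225, plus strand), Psmb8 (chr17:34198195-34201454, plus strand) and Tap2 (chr17:34204479-34216321) span 34.3 kb, and the starts of Psmb9 and Tap1 are 226 bases apart. Tapbp (chr17:33919478-33929290) and H2-K1 (chr17:33996012-34000619) lie on one side of this block and H2-D1 (chr17:35263094-35267497) on the other. B2m (chr2:122147687-122153082), Psmb10 (chr8:105935728-105938392) and Psme2 (chr14:55587440-55591101) are on other chromosomes.

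Promoter windows of 300 bases were found in RefSeq for 9 of the 10 genes, and the 4 windows shown belong to the surface chains, which differed least (H2-K1 and H2-D1) and strongly (B2m) between genotypes, and to Tap1, whose window also overlaps the start of Psmb9 on the opposite strand. They are H2-K1 (chr17:34000298-34000597, minus strand), H2-D1 (chr17:35262844-35263143, plus strand), B2m (chr2:122147437-122147736, plus strand) and Tap1 (chr17:34187306-34187605, plus strand), written 5′ to 3′ in GRCm38.p6. Capitals mark a match on either strand to a kappaB-type motif (GGGNNTTCC) or an interferon regulatory factor-type motif (GAAANNGAA).
H2-K1: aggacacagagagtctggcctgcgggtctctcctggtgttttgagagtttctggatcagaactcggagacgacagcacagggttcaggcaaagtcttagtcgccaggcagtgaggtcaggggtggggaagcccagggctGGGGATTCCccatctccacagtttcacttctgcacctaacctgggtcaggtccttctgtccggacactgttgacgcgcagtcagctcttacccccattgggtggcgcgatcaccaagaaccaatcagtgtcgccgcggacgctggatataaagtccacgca
H2-D1: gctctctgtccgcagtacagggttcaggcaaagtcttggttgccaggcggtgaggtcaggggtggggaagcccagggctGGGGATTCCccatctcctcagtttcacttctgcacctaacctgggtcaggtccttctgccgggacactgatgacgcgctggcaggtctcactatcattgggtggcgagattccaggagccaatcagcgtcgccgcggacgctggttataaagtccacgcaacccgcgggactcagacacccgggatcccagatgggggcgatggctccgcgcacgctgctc
B2m: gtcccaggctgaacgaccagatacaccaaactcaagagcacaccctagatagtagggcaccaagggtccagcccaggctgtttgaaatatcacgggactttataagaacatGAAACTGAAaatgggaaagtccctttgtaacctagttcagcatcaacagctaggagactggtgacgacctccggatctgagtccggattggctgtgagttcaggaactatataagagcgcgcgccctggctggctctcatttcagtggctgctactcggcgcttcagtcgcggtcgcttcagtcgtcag
Tap1: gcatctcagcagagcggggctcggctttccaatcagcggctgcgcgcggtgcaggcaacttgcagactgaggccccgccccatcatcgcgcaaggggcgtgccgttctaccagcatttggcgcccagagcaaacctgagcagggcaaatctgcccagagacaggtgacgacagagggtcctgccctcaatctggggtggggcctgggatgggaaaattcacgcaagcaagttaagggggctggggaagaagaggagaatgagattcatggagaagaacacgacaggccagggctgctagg
H2-K1 and H2-D1 held the same kappaB-type match, a motif found in 5.85% of 32544 promoter windows, and B2m held an interferon regulatory factor-type match, found in 8.53%. A GAS-type motif (TTCNNNGAA), present in 8.33% of windows, was matched in the promoter window of Psmb8. None of the 3 motifs was matched in the windows of Tap1, Psmb9, Tapbp, Psmb10 or Psme2. Only exact matches to these short patterns were counted, so a window without a match may still hold a variant of the site.

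The matrix held 1362 cells, 682 of them wild-type and 680 Rad21-/-, with up to 270 cells, 1417409 to 2195921 UMIs and a median of 5577 to 7055.5 UMIs per cell in each group. A level is the mean over all cells of a group of the gene's UMIs in the cell scaled to 1000000 UMIs (CPM). Since 17 wells with more than 25000 UMIs held up to 45.5% of a group's UMIs, each cell was given equal weight, and cells thinned to 3800 UMIs were used where depth matters. Rad21 was found in 25.9%, 26.9% and 18.7% of wild-type cells at 0, 2 and 8 h and in 2.96%, 6.45% and 5.80% of Rad21-/- cells, with mean CPM of 60.9, 50.2 and 34.2 against 4.90, 8.15 and 8.60. All 9 macrophage markers were detected in every group, and their summed mean CPM was 9431, 10385 and 7760 in wild-type cells, compared with 6193, 6877 and 6173 in Rad21-/- cells. The single markers went different ways. Csf1r was found in 74.5%, 79.0% and 55.3% of wild-type and in 82.2%, 88.7% and 79.9% of Rad21-/- cells at 0, 2 and 8 h. Fcgr1 was found in 49.8%, 46.2% and 90.3% against 42.6%, 41.9% and 66.5%. The part of the lower summed macrophage marker level in the results was not tested. Of the lists for other cell types, 2 of 7 neutrophil, 2 of 5 dendritic cell, 2 of 5 B cell, 1 of 5 T and NK cell and 3 of 4 fibroblast markers were in the matrix, with summed mean CPM of 0 to 13.4, 23.7 to 32.4, 11.2 to 25.3, 4.29 to 12.3 and 7.25 to 21.5 over the groups. S100a8 and Camp, of neutrophils, were at 0 in untreated wild-type cells, and at 8 h S100a8 was found in 5.06% of wild-type and Camp in 7.14% of Rad21-/- cells. The fibroblast collagen gene Col1a1 was at 0 in 3 groups, but Col1a2 was found in 4.18% to 9.68% and Dcn in 1.79% to 5.91% of cells over the groups. The markers of the remaining lists were also found in every group. Of dendritic cells, Zbtb46 was found in 12.8% to 17.7% of cells and Flt3 in at least 1.61%. Ms4a1 and Pax5, of B cells, were found in 3.33% to 9.14% and 3.11% to 8.04%, and Cd3g, of T cells, in 2.59% to 9.38%. The part of these markers of other cell types in the results was not tested.

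The chains displayed on the cell surface were the most evenly detected of the 10 genes, with a UMI in 94.8% to 100% of the cells of every group. H2-K1, a classical class I heavy chain, had a mean CPM of 1064, 1236 and 1284 in wild-type cells at 0, 2 and 8 h and of 759, 980 and 1063 in Rad21-/- cells. Its level was lowest in untreated Rad21-/- cells, and after 8 h of LPS Rad21-/- cells were at the level of untreated wild-type cells. The log2 ratio of Rad21-/- to wild-type was -0.49 (-0.60 to -0.37) untreated, -0.33 (-0.45 to -0.22) at 2 h and -0.27 (-0.37 to -0.17) at 8 h. H2-D1, the other classical heavy chain, had a mean CPM of 1621, 1803 and 1626 in wild-type and of 1375, 1620 and 1410 in Rad21-/- cells. It was the gene of the 10 closest between genotypes at all 3 times, with log2 ratios of -0.24 (-0.33 to -0.15), -0.15 (-0.25 to -0.06) and -0.21 (-0.29 to -0.12). With UMIs summed over cells, where the deepest wells weigh most, the ratio at 2 h was 0.06 instead.

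B2m, the light chain that every class I heavy chain needs to reach the surface, differed more between genotypes than either heavy chain. Its mean CPM was 4816, 4746 and 5426 in wild-type cells and 2672, 2463 and 2744 in Rad21-/- cells, so that each Rad21-/- group lay below each wild-type group. The log2 ratio was -0.85 (-0.91 to -0.79) untreated, -0.95 (-1.02 to -0.88) at 2 h and -0.98 (-1.04 to -0.93) at 8 h, which is a 1.80-fold to 1.98-fold lower level. LPS moved B2m little, with log2 ratios at 8 h of 0.17 (0.12 to 0.22) in wild-type and 0.04 (-0.03 to 0.10) in Rad21-/- cells. B2m also varied between library pools, the sets of wells amplified together, far beyond its counting interval. Among 8 pools of untreated Rad21-/- cells it ranged from 861 to 4374 CPM around a median of 2889, and among 8 pools of untreated wild-type cells from 3393 to 6508 around a median of 4557. The genotype ratio of B2m also differed between pools with at least 10 cells of each genotype, though it was below 0 in all of them. On the log2 scale it ranged from -1.98 to -0.51 untreated, from -1.58 to -0.66 at 2 h and from -1.43 to -0.56 at 8 h.

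**Figure D1:**
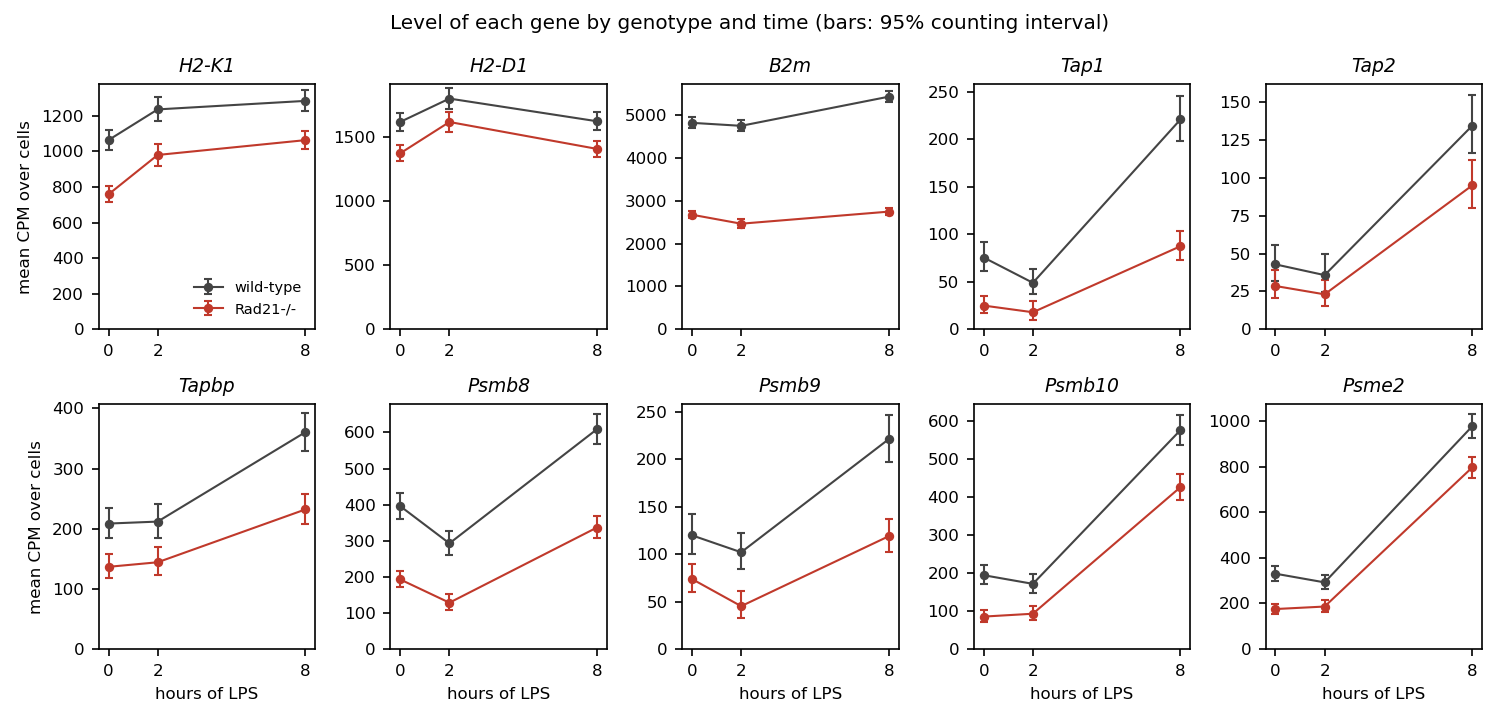
Mean CPM over cells (vertical axis, linear from 0) of each gene against hours of LPS (horizontal axis) for wild-type (grey) and Rad21-/- (red) macrophages, 1 sample per point, with 95% counting intervals. All 10 red lines run below the grey ones, by the widest ratio for Tap1 and the narrowest for H2-D1, and Tap1, Tap2, Psmb10 and Psme2 have the largest ratios of 8 h to untreated.

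The transporter genes were low in untreated cells and higher after 8 h. Tap1, one half-transporter of the TAP complex, had a mean CPM of 75.5, 48.9 and 221 in wild-type and of 24.9, 17.9 and 87.4 in Rad21-/- cells at 0, 2 and 8 h. Rad21-/- cells after 8 h of LPS were thus near the level of untreated wild-type cells. A Tap1 UMI was found in 31.8%, 28.5% and 69.6% of wild-type and in 14.1%, 9.68% and 48.2% of Rad21-/- cells, and among thinned cells in 26%, 17% and 56.1% against 6.28%, 4.55% and 31.0%. Tap1 had the lowest ratio of the 10 genes at every time, with a log2 of -1.60 (-2.19 to -1.04) untreated, -1.45 (-2.41 to -0.58) at 2 h and -1.34 (-1.64 to -1.05) at 8 h. Its partner Tap2 had a mean CPM of 42.8, 35.7 and 134 in wild-type and of 28.6, 23 and 94.9 in Rad21-/- cells. For Tap2 the genotype ratio was smaller, and its interval reached past 0 untreated (log2 -0.58, -1.22 to 0.04) and at 2 h (-0.63, -1.38 to 0.11) but not at 8 h (-0.50, -0.82 to -0.18). Tapbp, which encodes tapasin, had a mean CPM of 209, 212 and 360 in wild-type and of 136.7, 144 and 232 in Rad21-/- cells, and its genotype ratio stayed between -0.64 and -0.55 on the log2 scale.

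The immunosubunits of the proteasome were lower in Rad21-/- cells at each time, by amounts that differed between subunits after LPS. Psmb8 had a mean CPM of 396, 293 and 609 in wild-type and of 193, 128.5 and 337 in Rad21-/- cells. It was lowest at 2 h in both genotypes, and its genotype ratio was -1.04 (-1.25 to -0.82), -1.19 (-1.48 to -0.90) and -0.85 (-1.02 to -0.69) on the log2 scale. Psmb9 had a mean CPM of 120, 102 and 221 in wild-type and of 73.8, 45.2 and 119 in Rad21-/- cells, with ratios of -0.70 (-1.08 to -0.32), -1.17 (-1.73 to -0.65) and -0.90 (-1.17 to -0.63). Psmb10 had a mean CPM of 195, 171.8 and 577 in wild-type and of 85.6, 93.1 and 426 in Rad21-/- cells. Its ratio was nearest to 0 at 8 h, going from -1.18 (-1.52 to -0.86) and -0.88 (-1.25 to -0.52) to -0.44 (-0.59 to -0.28). Psmb10 was found in 64.0% of untreated wild-type and 32.6% of untreated Rad21-/- cells, and at 8 h in 93% and 91.1%, although among thinned cells the shares at 8 h were 86.8% and 73.4%.

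Psme2, a subunit of the activator that caps the immunoproteasome, followed the course of Psmb10. Its mean CPM was 330.5, 292 and 976 in wild-type cells, compared with 176, 186.5 and 796 in Rad21-/- cells, and the genotype ratio was -0.91 (-1.15 to -0.68), -0.65 (-0.91 to -0.39) and -0.29 (-0.41 to -0.18). Of 50-base windows in the last 400 bases of its transcript, 68.9% are also found in the copy Psme2b-ps, and the Psme2b row of the matrix held 4752 UMIs beside 5185 for Psme2, so that reads may have been split between them. Psme2b alone gave genotype ratios of -0.91, -0.56 and -0.24, and the pair together -0.91, -0.60 and -0.27. H2-D1 shared 12.3% of such windows with H2-K1 and other genes and H2-K1 shared 0.570%, while the other 7 genes shared none.

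At all 3 times all 10 genes were lower in Rad21-/- than in wild-type macrophages. In untreated cells the median log2 ratio of the 10 was -0.77, with medians of the genes' lower and upper bounds of -1.11 and -0.53, beside -0.02 over all 5804 genes with at least 100 UMIs in both samples together. The fold of 2 used as a call was passed by Tap1, Psmb8 and Psmb10, 3 of 10 genes, where 3.81% of all genes passed it in that direction. At 2 h the median was -0.77 (-1.13 to -0.46) beside 0.02 over all genes, and Tap1, Psmb8 and Psmb9 were at least 2-fold lower, where 5.13% of all genes were. At 8 h the median was -0.57 (-0.83 to -0.36) beside 0.19, and Tap1 alone was at least 2-fold lower, where 5.67% of all genes were. The counting interval lay wholly below 0 for 9 genes untreated, 9 at 2 h and 10 at 8 h, the exception being Tap2 both times, while 15.5%, 13.2% and 14.9% of all genes had such an interval. Median-of-ratios scaling moved all ratios at 8 h by -0.25, and 4 of the 10 genes then passed the fold of 2.

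**Figure D2:**
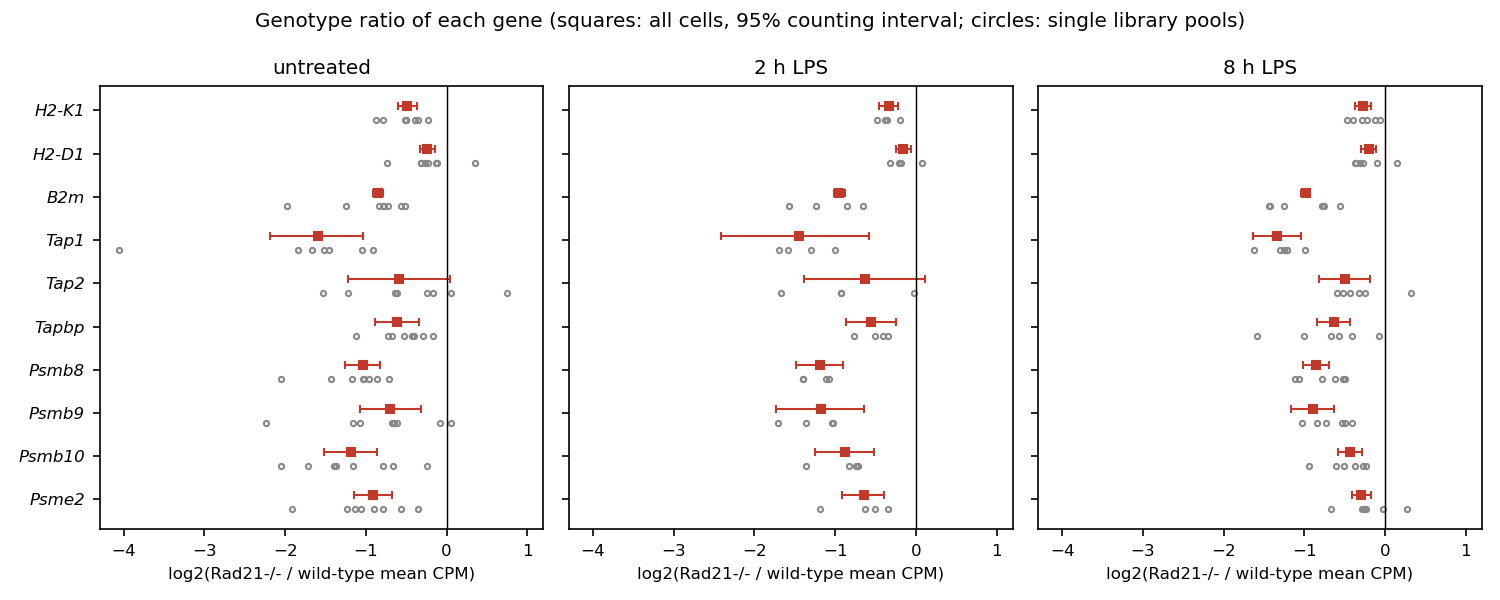
Log2 ratio of mean CPM in Rad21-/- over wild-type macrophages (horizontal axis) for each gene, untreated and at 2 and 8 h, as red squares with 95% counting intervals and, as open circles, within single library pools (8, 4 and 6 pools); an untreated pool with no Tap1 UMI in Rad21-/- cells is not drawn. Nearly all circles lie left of 0, and those right of it belong to H2-D1, Tap2, Psmb9 and Psme2.

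Because a library pool usually held cells of both genotypes, the genotypes could be compared inside pools that share amplification and sequencing. In several pools the genotypes had separate ranges of well barcodes, so genotype and well block cannot be told apart there. Pools with at least 10 cells of each genotype numbered 8, 4 and 6 at the successive times. The median log2 ratio of the 10 genes was below 0 in each of them, at -1.02 to -0.38, -1.11 to -0.62 and -0.60 to -0.41. Untreated, 7 of the 10 genes were lower in Rad21-/- cells in every pool, where 5.44% of all genes were, the exceptions being H2-D1, Tap2 and Psmb9. At 2 h the number was 9, all but H2-D1, beside 14.5% of all genes. At 8 h it was 7, all but H2-D1, Tap2 and Psme2, beside 9.71% of all genes. Wells of a pool are not replicate cultures, and these counts describe the same 6 samples.

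After 8 h of LPS all 10 genes had a higher mean CPM than in untreated cells in both genotypes, though for H2-D1 in both and for B2m in Rad21-/- cells by less than the counting error. In wild-type cells the median log2 ratio of 8 h to untreated was 0.84 (0.58 to 1.10), beside -0.17 over all genes. Tap1 (1.55), Tap2 (1.65), Psmb10 (1.57) and Psme2 (1.56) were at least 2-fold higher, 4 of 10 genes where 9.52% of all genes were. In Rad21-/- cells the median was 0.78 (0.55 to 1.04) beside -0.00, and again Tap1 (1.81), Tap2 (1.73), Psmb10 (2.32) and Psme2 (2.18) were at least 2-fold higher, where 7.53% of all genes were. Intervals lay wholly above 0 for 9 genes in wild-type cells, all but H2-D1, and for 8 in Rad21-/- cells, all but H2-D1 and B2m, beside 19.0% and 20.3% of all genes. Each pool held 1 time point, so LPS and pool cannot be told apart. Every 8 h pool lay above every untreated pool for Tap1, Tapbp, Psmb10 and Psme2 in wild-type cells, beside 6.77% of all genes, and for Tap1, Tap2, Psmb8, Psmb10 and Psme2 in Rad21-/- cells, beside 4.88%.

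At 2 h the 10 genes had no common direction. The median log2 ratio to untreated was -0.18 (-0.43 to 0.12) in wild-type cells, where no gene was 2-fold lower beside 2.44% of all genes, and -0.02 (-0.26 to 0.38) in Rad21-/- cells, where none was beside 1.16%. In the latter comparison Tap1 and Tap2 held under 100 UMIs in both samples together, so 8 of the 10 genes passed that minimum, against all 10 in the other comparisons. H2-K1 was higher at 2 h in both genotypes, by 0.22 (0.11 to 0.33) and 0.37 (0.24 to 0.49) on the log2 scale. H2-D1 had ratios of 0.15 (0.06 to 0.24) and 0.24 (0.14 to 0.33), but the one in wild-type cells turned to -0.06 with summed UMIs. Psmb8 was lower in both, at -0.43 (-0.64 to -0.23) and -0.59 (-0.89 to -0.29). Tap1 had an interval below 0 in wild-type cells (-0.63, -1.14 to -0.13), and Psmb9 (-0.71, -1.27 to -0.17) and B2m (-0.12, -0.19 to -0.04) had one in Rad21-/- cells, although the ratio of B2m was 0.10 and 0.0071 when either of 2 library pools was left out.

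**Figure D3:**
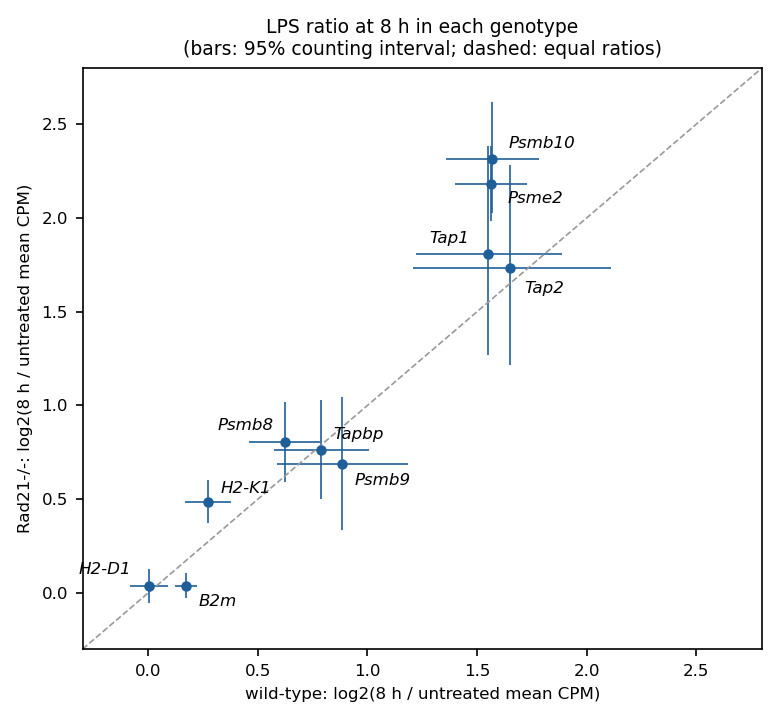
Log2 ratio of mean CPM at 8 h of LPS over untreated in wild-type (horizontal axis) and Rad21-/- macrophages (vertical axis), 1 point per gene with 95% counting intervals in both directions and a dashed line of equal ratios. H2-D1, B2m and H2-K1 lie near the origin, Psmb10 and Psme2 lie above the line by 0.75 and 0.62, and B2m lies below it by 0.13; with median-of-ratios scaling 3 points rather than 7 would lie above it.

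How the ratio of 8 h to untreated compared between genotypes depended on the scaling. It was larger in Rad21-/- than in wild-type cells for 7 of the 10 genes and smaller for B2m, Tapbp and Psmb9, with a median difference of 0.13 on the log2 scale, but with median-of-ratios scaling it was larger for 3 (Tap1, Psmb10 and Psme2) and smaller for 7, with a median difference of -0.10. The median ratio over all genes, -0.17 in wild-type and -0.00 in Rad21-/- cells, was offset in the same direction as the 0.13. Psmb10 was 2.96-fold higher at 8 h in wild-type and 4.98-fold higher in Rad21-/- cells, and Psme2 2.95-fold and 4.53-fold. On the log2 scale these differed by 0.75 and 0.62, and with median-of-ratios scaling by 0.51 and 0.38. These differences of ratios were not tested, since each ratio rests on 2 samples.

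The exchange of catalytic subunits was looked at here only as a share of transcripts, which went different ways between the pairs. Psmb8, Psmb9 and Psmb10 take the places of Psmb5, Psmb6 and Psmb7, and the UMIs of the 3 immunosubunits were divided by those of all 6 genes in thinned cells. The share was 49% (45.8% to 52.1%, Clopper-Pearson, as for all shares here), 41.5% (38.2% to 44.9%) and 61.0% (58.8% to 63.1%) in wild-type cells at 0, 2 and 8 h. In Rad21-/- cells it was 39.9% (36.3% to 43.6%), 36.9% (32.4% to 41.5%) and 47.7% (45.1% to 50.3%), so that Rad21-/- cells at 8 h had a share near that of untreated wild-type cells. Psmb8 of Psmb8 and Psmb5 stood at 70.7% untreated and 83.7% at 8 h in wild-type and at 67.0% and 65.5% in Rad21-/- cells. Psmb10 of Psmb10 and Psmb7 went from 55.7% to 82% and from 41.4% to 74.8%, and Psmb9 of Psmb9 and Psmb6 from 20.9% to 25.4% and from 19.4% to 17.5%. The intervals of the untreated and the 8 h share overlapped for the Psmb9 pair in both genotypes (16.9% to 25.4% and 22.3% to 28.6% in wild-type cells) and for the Psmb8 pair in Rad21-/- cells, and did not overlap for the other pairs. For the activator, Psme2 made up 54.9%, 60.9% and 68.2% of Psme1 and Psme2 UMIs in wild-type cells, compared with 59.0%, 60.2% and 74.8% in Rad21-/- cells. UMIs of Psme2b, between which and Psme2 reads may be split, were left out here, so these shares may be too low.

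**Figure D4:**
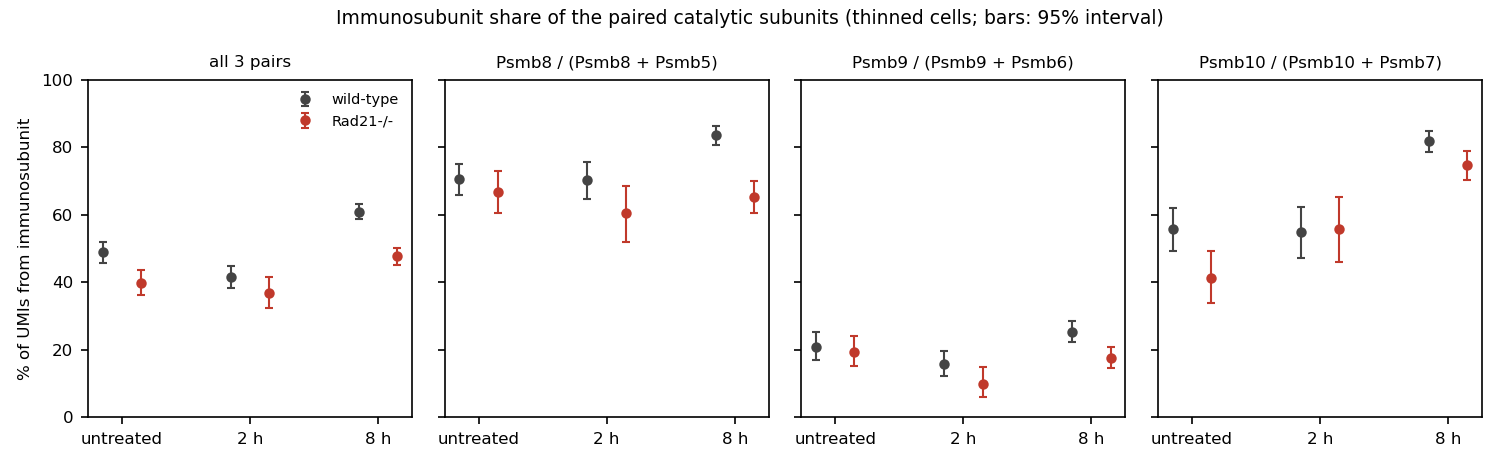
Percentage of UMIs from the immunosubunit (vertical axis, from 0 to 100) among all 3 pairs of catalytic subunits and within each pair, by time, in thinned wild-type (grey) and Rad21-/- (red) macrophages, with 95% Clopper-Pearson intervals. Over all 3 pairs the 8 h values are 61.0% and 47.7%, and in the Psmb8 pair the genotypes stand apart at 8 h, at 83.7% and 65.5%. At that time Psmb8 was lower in Rad21-/- than in wild-type cells (log2 ratio -0.85) and Psmb5 higher (0.55, 0.26 to 0.83).

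In single cells the summed UMIs of the 10 genes were lower in most Rad21-/- cells than in the median wild-type cell. Among cells thinned to 3800 UMIs (at most 228 per group) the median sum was 32, 34 and 42.5 UMIs in wild-type cells, compared with 20, 21 and 26 in Rad21-/- cells. Of Rad21-/- cells, 4.04% untreated, 3.90% at 2 h and 5.91% at 8 h exceeded the wild-type median of the same time. B2m made up 37.3% to 53.1% of the sum, and without it the shares were 11.7%, 26% and 18.7%. For the 7 genes other than B2m, H2-K1 and H2-D1 they were 4.93%, 12.3% and 8.87%, where 39.6%, 35.8% and 44.3% of the wild-type cells themselves exceeded the median, because low sums are often tied. At least 8 of the 10 genes were detected in 12.0%, 5.45% and 66.7% of thinned wild-type and in 2.24%, 1.30% and 31.5% of thinned Rad21-/- cells. From cell to cell within a group the median rank correlation over the 45 pairs was 0.003 to 0.037 in thinned cells, and sparse counts by themselves keep such values low. H2-K1 with H2-D1 was the highest pair in 5 of the 6 groups, at 0.20 to 0.38, while in wild-type cells at 2 h it was H2-K1 with Tapbp, at 0.19.

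**Figure D5:**
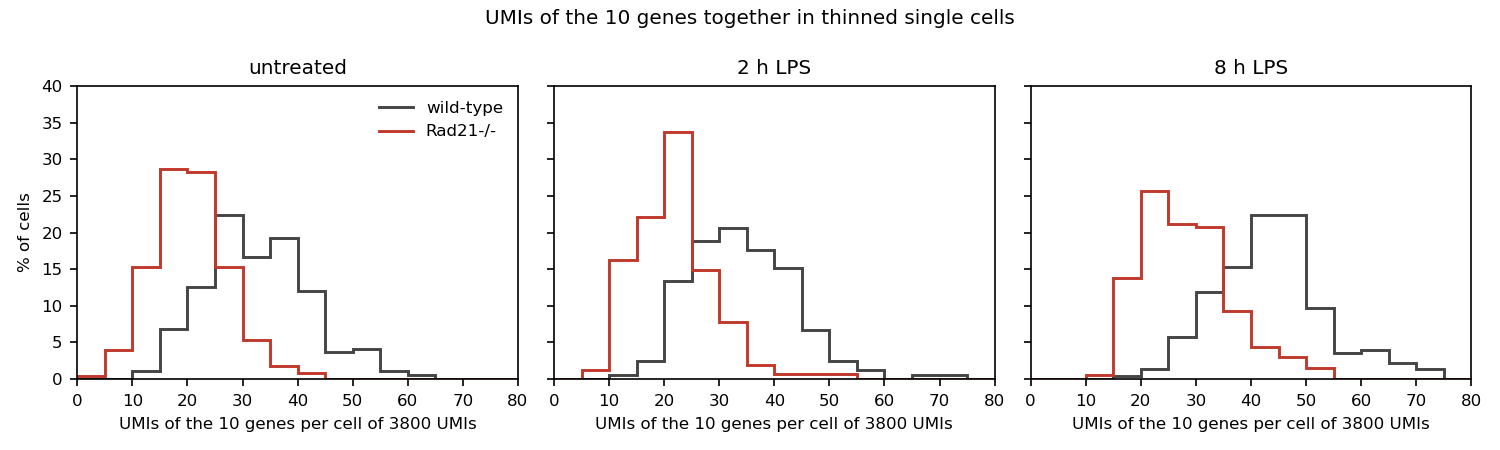
Percentage of thinned cells (vertical axis) by the summed UMIs of the 10 genes per cell of 3800 UMIs (horizontal axis, bins of 5 UMIs), untreated and at 2 and 8 h, for wild-type (grey) and Rad21-/- (red) macrophages. The outlines overlap, and the red one lies to the left at all 3 times, with medians of 20, 21 and 26 against 32, 34 and 42.5 UMIs.

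Of 50 other genes of the pathway, 49 were in the matrix. Other class I heavy chains, which include non-classical molecules and have near-identical copies between which reads may be split, had median log2 genotype ratios of -0.99, -1.35 and -1.40 at 0, 2 and 8 h. Of those with at least 100 UMIs in both samples together, 1 of 3 untreated, 3 of 5 at 2 h and 6 of 7 at 8 h were at least 2-fold lower in Rad21-/- cells, beside 3.81%, 5.13% and 5.67% of all genes. Different genes passed this minimum at each time, partly through their wild-type UMIs, so these medians and counts do not compare the times. The minimum also favours genes that are high in wild-type cells, so by themselves these medians and counts do not show lower levels in Rad21-/- cells. The genes that passed it each time had ratios of -1.49, -1.35 and -1.42 (H2-T23), -0.99, -0.85 and -0.99 (H2-M3) and -0.65, -0.44 and -1.40 (H2-T22). H2-Q7, at -3.13 untreated, fell below it there with 92 UMIs. H2-T22, a non-classical heavy chain, had a mean CPM of 57.9, 35.1 and 216 in wild-type and of 36.9, 25.9 and 81.8 in Rad21-/- cells. Genes of the constitutive proteasome core had median genotype ratios of -0.37, -0.43 and 0.03 at 0, 2 and 8 h, with 0 of 14 at least 2-fold lower each time. One of them, Psma6, was 2.5-fold higher at 8 h in wild-type cells. Among the genes of the list with at least 100 UMIs in both samples together, and leaving out Irf1 and Nlrc5, H2-T22 (3.73-fold) and Psma6 had the highest ratios. Loading and trimming factors, such as the chaperones Calr and Pdia3, had a median 8 h ratio of 0.02 in wild-type cells, where Calr (-0.77) and Pdia3 (-0.74) were lowest among genes past that minimum. The median genotype ratios of these factors were -0.25, -0.28 and 0.03 at 0, 2 and 8 h. At least 2-fold lower were 0 of 6, 1 of 6 and 0 of 8 genes, beside 3.81%, 5.13% and 5.67% of all genes.

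Irf1 and Nlrc5, the regulators named here, had their highest mean CPM at different times. Irf1, an interferon-induced activator of class I genes, had a mean CPM of 30.7, 314 and 176 in wild-type and of 25.2, 398 and 86 in Rad21-/- cells, so that it peaked at 2 h, when the 10 genes had no common direction. Nlrc5, the class I transactivator, was low, at 11.3, 21.9 and 50.8 in wild-type cells, compared with 8.34, 12.7 and 21 in Rad21-/- cells. It held 34 UMIs in both untreated samples together. Its log2 genotype ratio was -0.44 (-1.71 to 0.78), -0.79 (-1.81 to 0.20) and -1.28 (-1.95 to -0.64) at 0, 2 and 8 h. The ratio of 2 h to untreated had intervals that included 0 in wild-type (0.96, -0.04 to 2.00) and Rad21-/- cells (0.61, -0.59 to 1.87).

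The genes outside the 10 whose log2 level followed the mean of the 10 most closely over the 6 groups, among 8049 genes with at least 20 UMIs in every group, were Phf11d (Pearson r = 0.998), Psme1 (0.997), Xaf1 (0.996), Gsdmd (0.995) and Ifi35 (0.994). Psme1, the partner of Psme2 in the activator, had a mean CPM of 227, 210 and 451 in wild-type and of 128.8, 127 and 268 in Rad21-/- cells. Within the 10, the correlation of a gene with the mean of the others was 0.93 to 0.99 for the 7 processing genes and lower for H2-K1 (0.74), B2m (0.66) and H2-D1 (0.15). With 6 points that share libraries, these values only describe the patterns.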

How the data were processed

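Single macrophages of 6 groups, 1 sample each, were sorted into wells and sequenced by MARS-seq. The authors demultiplexed reads, mapped them with GEMTools 1.7.0 to GRCm38.p4, dropped wells with more than 15% spike-in or less than 60% mapped reads, kept unambiguously mapped reads, collapsed UMIs at an edit distance of up to 2 and deposited unnormalized UMI counts. Counts were converted to CPM per cell and averaged over cells, and log2 ratios carry exact conditional binomial intervals on depth-weighted effective counts. The authors also state a filter on genes found in under 5% of cells, but 5709 genes of the matrix were below 5% of all cells. No doublet caller was run. Wells were sorted singly, but 17 held more than 25000 UMIs, and whether each of these held 1 cell was not tested. No cell name or count profile occurred more than 1 time. Thinning to 3800 UMIs left out 197 of the 1362 cells and was seeded. The 10 genes and all lists were chosen with earlier results of these data known. The genes named are the 10, Rad21, the proteasome counterparts, Psme1, Nlrc5, Irf1, the 2 highest and 2 lowest other pathway genes by their 8 h ratio in wild-type cells, among those with at least 100 UMIs in both samples together (genes already named aside), and the 5 genes most like the 10 in pattern. Alternatives were thinning, no deep wells, summed UMIs, median-of-ratios scaling, pool weights, leaving out pools, a 1.5-fold call, filters and, added after the data were seen, Psme2b with Psme2. Python 3.11.15, numpy 2.4.6, pandas 2.3.3, scipy 1.17.1 and matplotlib 3.10.9 were used. The log2 ratio and its interval were tested on simulated Poisson counts, which hold no spread between pools, and the thinning on real cells. The other steps were not tested on simulated data. The study's imaging, chromatin and bulk data were not analysed here. A further gene of the naming rule is not reported here.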

Additional observations from a re-analysis of the deposited data

Results flagged for a closer look

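Psmb10 and Psme2 went opposite ways between genotypes at 2 h of LPS. The log2 ratio to untreated of Psmb10 was -0.18 (-0.47 to 0.11) in wild-type and 0.12 (-0.28 to 0.52) in Rad21-/- cells, a difference of 0.30. For Psme2 it was -0.18 (-0.39 to 0.04) and 0.09 (-0.19 to 0.36), a difference of 0.26. All 4 intervals include 0, and the difference was not tested.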

How the results depend on the processing

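No paired analysis was possible because each group is 1 sample. Under every alternative run for it, the median ratio of the 10 genes stayed between the medians of the single genes' bounds, a loose limit. It lay between -0.89 and -0.72 for Rad21-/- against wild-type untreated, -0.88 and -0.61 at 2 h, -0.82 and -0.54 at 8 h, and, for 8 h against untreated, 0.78 and 1.05 in wild-type cells, with 0.68 and 0.92 in Rad21-/- cells. In Rad21-/- cells at 2 h against untreated it went from -0.08 to 0.23 in thinned cells. Of 1237 alternatives for single genes, 57 lay outside the main interval and 4 reversed a ratio whose interval excluded 0. Those were H2-D1 with summed UMIs, at -0.058 for wild-type 2 h against untreated and 0.061 for Rad21-/- against wild-type at 2 h, and B2m in Rad21-/- cells at 2 h against untreated, which left-out pools moved between -0.39 and 0.10 (0.10 without the pool of 45 Rad21-/- and 43 wild-type cells, 0.0071 without that of 41 and 47).

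Counts of genes past the fold depended on the fold. At 1.5-fold they were 1 (wild-type 2 h against untreated), 7 (wild-type 8 h), 2 (Rad21-/- 2 h), 7 (Rad21-/- 8 h), and for Rad21-/- against wild-type 7 untreated, 7 at 2 h and 5 at 8 h. At 2 h in Rad21-/- cells thinning and summed UMIs each gave 1 gene past 2-fold where the main count was 0. For Rad21-/- against wild-type at 8 h the count of 1 became 2 with summed UMIs, 4 with median-of-ratios scaling, 2 with equal pool weights, and 1 to 2 when single pools were left out (2 without the pool of 46 Rad21-/- and 41 wild-type cells, that of 44 and 43 or that of 17 and 11). Median-of-ratios scaling shifted all ratios by 0.21 for wild-type 8 h against untreated and by -0.25 for Rad21-/- against wild-type at 8 h, and by under 0.1 elsewhere. The immunosubunit share of wild-type cells at 2 h was 45.3% over all UMIs, where deep wells weigh most. Among genes with at least 1 UMI in each sample, the share of all genes past 2-fold was 11.4% and 10.5% for 2 h against untreated in wild-type and Rad21-/- cells, and 9.79% and 11.7% for Rad21-/- against wild-type untreated and at 2 h. With at least 500 UMIs it was 0.612% and 0.444% for the 2 h comparisons, 18.6% for wild-type 8 h and 10.4% for Rad21-/- against wild-type at 8 h. The cause of these shifts was not tested.

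With 1 sample per group, intervals cover counting error only. Tap1 and Tap2 had 18 and 40 UMIs in Rad21-/- cells at 2 h, so ratios there are wide, and a difference of the Tap2 size was not detectable at this depth before 8 h.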
